A study of Mus musculus with 4 samples.

Results

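The conventional type 1 dendritic cells (cDC1) described here were 117 of the 43432 colonic leukocytes that passed the cell filters, and were found in 4 single-cell RNA libraries from mice with colitis. A cell was counted as a cDC1 when it held at least 2 unique molecular identifiers (UMIs, 1 for each captured RNA molecule) of Xcr1 and Clec9a together and at least 1 of Flt3. It also had to hold fewer than 3 UMIs of Fscn1 and Ccl22 together, and none of the T cell genes Cd3e and Cd3d, the B cell gene Cd79a, the neutrophil gene Ngp or the macrophage gene C1qa. Samples 1 to 4 contributed 40, 21, 37 and 19 of these cells. Each library mixed 3 mice, 10 weeks old by the labels and on a C57BL/6 background, that had drunk 2% dextran sulfate sodium (DSS) for 7 days and were taken on day 8. The age differs from that in the published description, which is younger. Leukocytes of the colonic lamina propria were enriched with CD45+ magnetic beads. The study used AhR-/- mice, which lack the aryl hydrocarbon receptor throughout the body, and AhR+/+ littermates. The labels used here do not say which library came from which genotype, so the libraries are called samples 1 to 4, no comparison between genotypes was made, and no untreated mice were analysed. With 3 mice in each library, the spread between mice is not seen.

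Dendritic cells take up antigen and present its peptides to T cells. The cDC1 lineage depends on the transcription factors Irf8 and Batf3 and senses dead cells through Clec9a. It is known for cross-presentation, in which peptides of captured antigen are loaded on MHC class I for CD8 T cells. Its chemokine receptor Xcr1 binds a chemokine made by activated T and NK cells, and Flt3 is the receptor for the growth factor that maintains dendritic cells. In the intestine many cDC1 carry the integrin Itgae (CD103). A second conventional lineage, cDC2, depends in part on Irf4 and carries Sirpa, and plasmacytoid dendritic cells (pDCs) depend on Tcf4 and are known for producing type I interferon. On maturation either conventional lineage gains Ccr7, Fscn1 and Ccl22 and leaves for the lymph node, and such cells are called migratory dendritic cells here.

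The rule genes lie on chromosomes of the mm10 build (GRCm38, GENCODE M21 annotation). Xcr1 spans chr9:123852315-123862029 on the minus strand, Clec9a chr6:129408862-129424763 on the plus strand and Flt3 chr5:147330741-147400489 on the minus strand. Among cDC1 of samples 1 to 4, Xcr1 stood at 199, 293, 134 and 294 CPM (the UMIs of a gene scaled to a total of 1000000 UMIs over the summed cells). Clec9a stood at 204, 322, 269 and 379 CPM, and Flt3 at 260.2, 309, 279 and 233 CPM. The cells were chosen by these values, which are given as a description, without a test. Of the 117 cells, 62 held UMIs of both Xcr1 and Clec9a, 7 of Xcr1 only and 48 of Clec9a only.

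The cDC1 made up 0.364% of the kept cells of sample 1 (exact 95% binomial interval 0.260% to 0.495%), 0.159% of sample 2 (0.0983% to 0.243%), 0.331% of sample 3 (0.233% to 0.457%) and 0.236% of sample 4 (0.142% to 0.368%). These intervals cover counting error only. Over all samples the last step of the rule, which removed cells holding a UMI of another lineage, took away more cells than it kept. In samples 3 and 4 that step kept more than it took away. Before this step 89, 116, 67 and 37 cells met the rest of the rule, and after it 40, 21, 37 and 19 remained. Among the cells removed, 122 held a UMI of Cd79a, 78 of Cd3d, 75 of C1qa, 70 of Cd3e and 56 of Ngp, and a cell could hold UMIs of several of these genes. Cells removed with a Cd79a UMI numbered 71 in sample 2 and 5 in sample 3. Without this step the shares were 0.810%, 0.877%, 0.60% and 0.459%, so that sample 2, which had the lowest share, had the highest. The order of the 4 samples in cDC1 share therefore depended on that step, and whether the removed cells were doublets, held free RNA or expressed those genes was not tested.

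**Figure D1:**
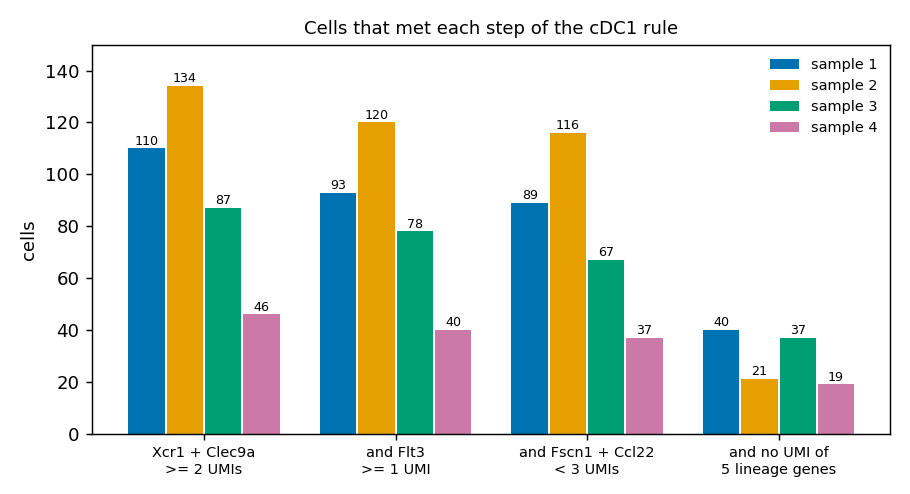
Number of cells (vertical axis) left in each of the 4 samples after each step of the rule that chose cDC1 (horizontal axis). The last step, the exclusion of cells with a UMI of Cd3e, Cd3d, Cd79a, Ngp or C1qa, took sample 2 from 116 cells to 21 and sample 1 from 89 to 40.

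The cDC1 were deeply sampled cells. Their median UMI counts were 16236, 11768, 13059 and 16182 in samples 1 to 4, against 7464, 6170, 6469 and 6091 over all kept cells. Summed per sample they gave 745471, 239273, 576286 and 295763 UMIs. A rule that asks for UMIs of sparse genes favours deep cells. When each cell was thinned to 2000 UMIs, 4, 6, 5 and 4 cells met it, or 0.0387%, 0.0501%, 0.0486% and 0.0554%. These are shares of the kept cells with at least 2000 UMIs, which numbered 10340, 11967, 10294 and 7220. The lineage exclusion was also applied to the thinned counts, so a cell removed by it at full depth could enter. Sample 1, which had the highest share before thinning, then had the lowest, though from few cells. Cells with exactly 2 UMIs of Xcr1 and Clec9a numbered 29, and 66 cells just outside the rule held 1 UMI and met its other terms. In the 29 cells just inside, Wdfy4 stood at 430 CPM and Sirpa at 148 CPM, in the 88 cells with 3 or more UMIs Wdfy4 stood at 827 CPM and Sirpa at 36.5 CPM, and in the 66 cells just outside they stood at 260 and 204 CPM. Pairs of libraries shared between 23 and 49 cell barcodes, at most 0.423% of the smaller library, and no shared barcode was a cDC1 in both libraries.

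The label of the cells was checked against cDC1 genes that the rule did not use, and part of the gate did not carry them. Siglech, a surface receptor of pDCs at chr7:55768178-55778925, was counted at 49.6, 322, 111 and 179 CPM in the cDC1 of samples 1 to 4. Its UMIs lay in 22 of the 117 cells, or 18.8%, and 19 of those 22 were cells with Clec9a and no Xcr1. After thinning to 2000 UMIs 16.4% of the cDC1 still held a Siglech UMI, against 0.152% of T cells, whose shares stand for free RNA (unthinned 0.450%). The median depth was 9054 UMIs in the 19 cells, 13855 in the 29 cells with Clec9a alone and no Siglech, and 16366 in the 69 cells with Xcr1. This split was made after the values were seen and is described without a test.

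In the 19 Clec9a-only cells with Siglech, pDC genes stood near the level of the separate pDC gate (at least 2 UMIs of Siglech and 1 of Tcf4, 59 cells). Tcf4 stood at 3846 CPM there and at 3889 CPM in the pDC gate, against 80.8 CPM in the cells with Xcr1 and 113 CPM in the Clec9a-only cells without Siglech. The pDC gate was itself drawn on Siglech and Tcf4, and Tcf4 is therefore no independent measure of likeness. Ly6d, which the gates did not use, stood at 1642 CPM in the 19 cells, 1017 CPM in the pDC gate and 2.42 CPM in the cells with Xcr1, and Bst2, an interferon-induced surface protein abundant on pDCs, at 1326, 1072 and 77.6 CPM. Klk1 and Cox6a2, further pDC genes, had all their UMIs of the gate in these 19 cells. The cDC1 genes showed the opposite order. Naaa, a lysosomal amidase, and Batf3 had no UMI in any of the 19 cells, whereas Naaa stood at 528 CPM and Batf3 at 88.1 CPM in the cells with Xcr1 and at 390 and 117 CPM in the Clec9a-only cells without Siglech. Cd74, the invariant chain of MHC class II, was at 2657 CPM in the 19 cells against 12641 and 9841 CPM in the other parts. Irf8 and Cadm1 did not separate the parts in this way: Irf8 was at 429, 275 and 436 CPM and Cadm1 at 839, 199 and 394 CPM in the cells with Xcr1, the Clec9a-only cells without Siglech and those with it.

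**Figure D2:**
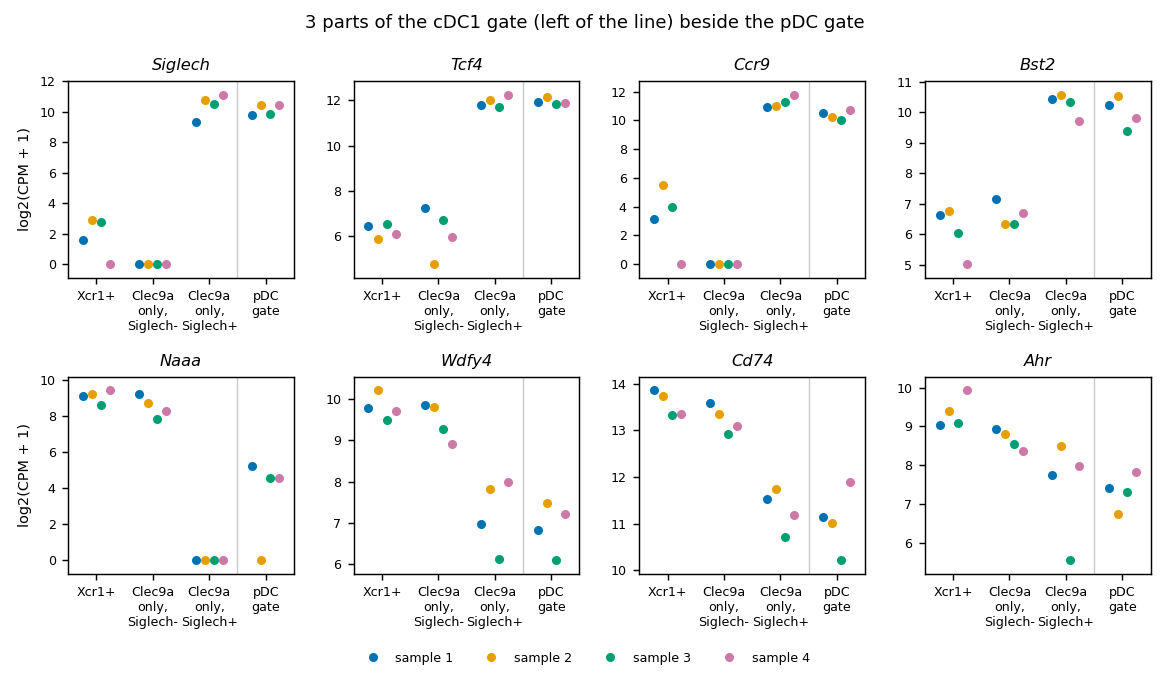
Levels of 8 genes (vertical axes, log2 of CPM + 1) in the 3 parts of the cDC1 gate and in the pDC gate, with 1 point for each of the 4 samples. Naaa was at 0 in the Clec9a-only cells with Siglech in all 4 samples, and Ccr9 and Bst2 sat near the pDC gate there.

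The other cDC1 markers were thus present in the cells with Xcr1 and in the Clec9a-only cells without Siglech, while in the Clec9a-only cells with Siglech Naaa and Batf3 were at 0 and Wdfy4 stood at 155 CPM, against 861 CPM in the cells with Xcr1. The data go against the label for these 19 cells. Of all UMIs counted in the gate, those 19 cells, 16.2% of its members, held 97.9% for Ly6d, 96.1% for Ccr9, 88.1% for Cacna1e, 84.1% for Ly6c2, 81.6% for Cybb and 81.0% for Tcf4. Their share was 58.0% for Ifnar2 and 57.2% for Tgfbr1. It was 12.1% for Clec9a, 10.0% for Irf8 and 5.53% for Cadm1. The cDC2 gate used for comparison also held cells with Siglech, 19 of 121, while the migratory gate held 1 of 441. All comparisons below keep the rule as stated, and values without the cells that held a Siglech UMI in either gate stand beside those results that they changed.

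The first comparison asked how cDC1 differ from cDC2 of the same samples. The cDC2 gate (Flt3, at least 2 UMIs of Cd209a and Clec10a together, no Xcr1 or Clec9a and the same exclusions) held 49, 24, 28 and 20 cells, with median depths of 12804, 10634, 10585 and 9247 UMIs. UMIs were summed per sample and gate and tested with edgeR's quasi-likelihood test, with the sample as a block and Benjamini-Hochberg adjustment over 4514 genes. In cDC1, 382 genes were higher (8.46% of those tested) and 389 lower (8.62%). The values of the 4 cDC1 samples lay without overlap above the 4 of cDC2 in 6.11% of genes and below them in 8.84%. The genes that define either gate were left out of the test. Calls were also made in other settings, and those that ended a call are given with the adjusted p reached there. They were fits without the sample block, DESeq2, a stricter lineage exclusion (at most 1 UMI over 17 genes of other lineages), a threshold of 3 UMIs for the gates, no filter on low counts and, added after the data were seen, no lineage exclusion. The other genes come from the same selected cells, so each p compares the gates as drawn and not lineages identified in another way.

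Of the 6 transcription factors listed for cDC1, 2 were higher and none lower, against 8.46% higher and 8.62% lower over all genes tested. Batf3, the partner of Irf8 in cDC1 development, stood at 111, 96.1, 67.7 and 57.5 CPM in cDC1 of samples 1 to 4 and at 23.2, 27.8, 6.21 and 11.2 CPM in cDC2. Every cDC1 value lay above every cDC2 value, with a log2 fold change of 2.42 (SE 0.32, adjusted p = 0.000397). Irf8 stood at 588, 472, 203 and 203 CPM against 285, 183, 168 and 168 CPM. It was high in samples 1 and 2, and the ranges overlapped. Its log2 fold change was 0.88 (SE 0.22, adjusted p = 0.0158). The call on Irf8 was lost without sample 1 (0.75, adjusted p = 0.123) and without sample 2 (0.70, adjusted p = 0.0829), and it was not reached without the sample block (0.96, adjusted p = 0.145) or under the stricter exclusion (1.14, adjusted p = 0.109). Without the Siglech cells the difference was 1.73. Id2, Nfil3, Zbtb46 and Bcl6 did not pass, with log2 values of 0.56, 0.34, -0.79 and -0.16. Id2 ranged within cDC1 from 280 CPM in sample 2 to 1068 CPM in sample 4.

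Of 22 listed cDC1 surface and effector genes in the files, 14 had enough counts to be tested, 13 were higher in cDC1 and none lower, with a median log2 fold change of 2.53 against 0.02 over all genes tested. A gene of this list passes the count filter mostly through the cDC1, so the count describes the list and is not support for it. The same holds for every list below whose genes are near 0 in one gate and pass through the other. Cadm1, an adhesion molecule at chr9:47530173-47857637, stood at 601, 748, 533 and 879 CPM in cDC1 and at 5.45, 51.6, 9.32 and 16.8 CPM in cDC2. Its log2 fold change was 5.41 (SE 0.36, adjusted p = 1.19e-05) and 6.28 without sample 2. Without the Siglech cells Cadm1 had 1032 UMIs against 3 in cDC2 (ratio 266, 95% interval 90.8 to 1292). Wdfy4, which is needed for cross-presentation of cell-associated antigen, stood at 832, 953, 635 and 727 against 143, 234, 106 and 223 CPM, a log2 fold change of 2.33 (SE 0.18). Both genes were separated without overlap in every sample.

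Naaa stood at 508, 456, 304 and 561 CPM in cDC1 against 94.1, 55.5, 46.6 and 78.2 CPM, a log2 fold change of 2.80 (SE 0.19, adjusted p = 1.19e-05). Itgae stood at 216, 179.7, 174 and 426 CPM against 19.1, 43.6, 46.6 and 55.9 CPM, a log2 fold change of 2.73 (SE 0.30, adjusted p = 0.000158). Sample 4 was the high one for Itgae. Ppt1, a lysosomal thioesterase, was higher by 3.13, Rab7b by 3.06, Hepacam2 by 2.98, Ifi205 by 2.24, Cd24a by 2.14 and Btla, an inhibitory receptor, by 2.05 on the log2 scale. Ly75 (DEC-205), an endocytic receptor, was at 161, 87.8, 319 and 132 CPM against 145, 7.94, 27.9 and 16.8 CPM. Its call (log2 1.93, adjusted p = 0.0203) was lost when any of samples 2, 3 or 4 was left out (1.73, 1.31 and 1.71, adjusted p = 0.0649, 0.0928 and 0.0573), and without sample 1 its value was 3.43. Rab43 (0.75) lost its call without sample 1 (adjusted p = 0.0770) and without sample 3 (0.54, adjusted p = 0.0821). Ly75 was not called without the sample block (adjusted p = 0.131), and neither Ly75 nor Rab43 under the stricter exclusion (adjusted p = 0.183 and 0.110). Itgax (CD11c), which conventional dendritic cells share, did not differ detectably (0.08, adjusted p = 0.835).

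Several cDC1 genes were too sparse to test. Tlr3, the endosomal receptor for double-stranded RNA, had 45 UMIs in cDC1 and 0 in cDC2, at least 12-fold higher against a floor of 3 UMIs over the 4 samples, or at least 6.32-fold without sample 1. Tlr11 had 32 against 1 (ratio 25.6, 95% interval 4.28 to 1043), and 11 against 1 without sample 1 (7.45, 1.08 to 321). Gpr33 had 27 against 2 (10.8, 2.72 to 93.8), and 26 against 1 without sample 2 (19.8, 3.26 to 813). Intervals of these ratios treat UMIs as independent and cover counting error only.

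**Figure D3:**
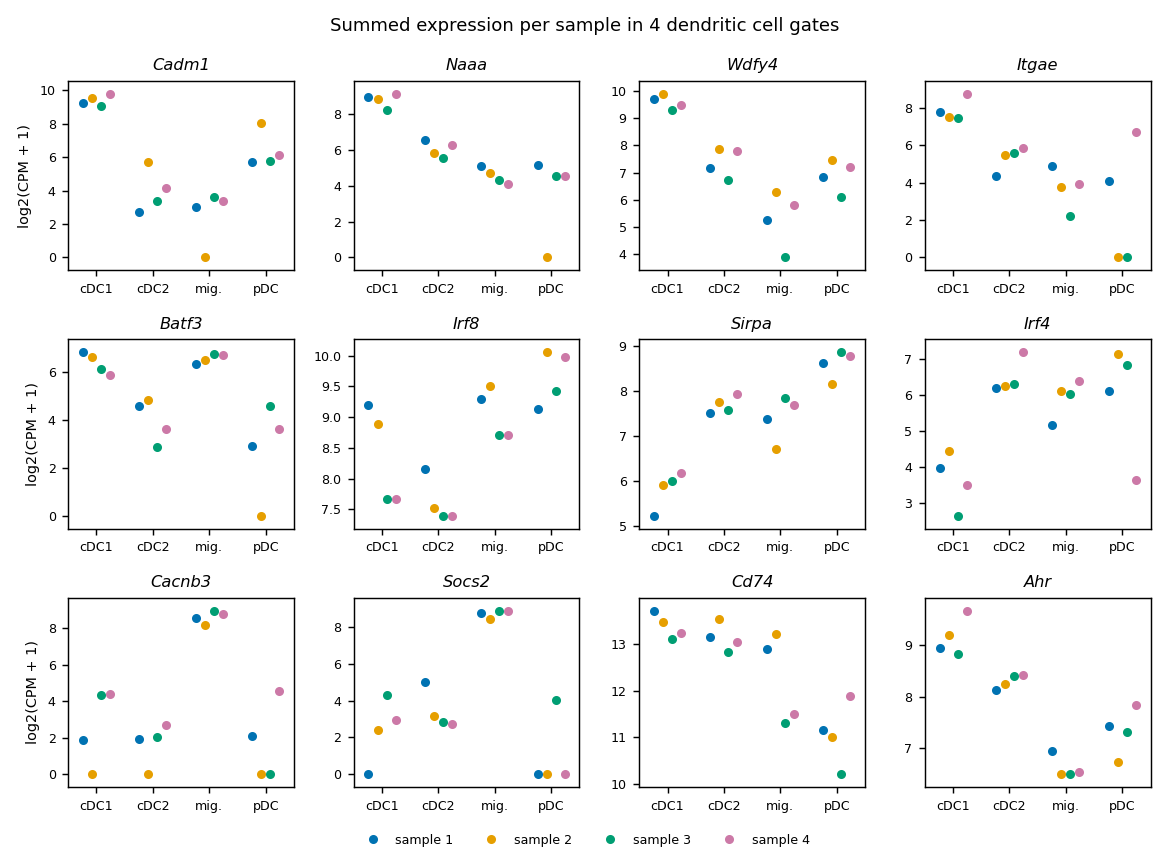
Levels of 12 genes (vertical axes, log2 of CPM + 1) in cDC1, cDC2, migratory dendritic cells and pDCs, with 1 point for each of the 4 samples. Cadm1, Naaa, Wdfy4 and Itgae were highest in cDC1 in all 4 samples, Sirpa and Irf4 lay lower in cDC1 than in cDC2, and Cacnb3 and Socs2 marked migratory cells.

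Of the 17 genes listed for cDC2, 8 had enough counts to be tested, mostly through the cDC2. Among them 5 were lower in cDC1 and 1 higher, with a median of -1.67, which describes the tested genes alone. Irf4 stood at 14.8, 20.9, 5.21 and 10.1 CPM in cDC1 and at 72.3, 75.4, 77.6 and 145 CPM in cDC2, a log2 fold change of -2.71 (SE 0.38, adjusted p = 0.000607). Without the Siglech cells it was -4.30. Sirpa, which carries the signal not to engulf, stood at 36.2, 58.5, 62.5 and 71.0 CPM against 181, 214, 189 and 240.2 CPM (log2 -1.79, SE 0.21, adjusted p = 0.000235, and -2.50 without the Siglech cells). Itgam (CD11b), Cd7 and Cd300a were lower by log2 values of -2.06, -1.81 and -1.55, with Itgam at -2.72 when sample 3 was left out. Of the Cd7 UMIs in the cDC1 gate, 81.0% lay in the Clec9a-only cells with Siglech. Without the Siglech cells Cd7 no longer had enough counts to test. Itgam was not called in DESeq2 (adjusted p = 0.0784), and neither it nor Cd7 without the sample block (adjusted p = 0.0786 and 0.0615). Rbpj, which transmits Notch signals, was called higher (0.54), a call lost without each of samples 1, 2 and 3 (0.54, 0.40 and 0.59, adjusted p = 0.133, 0.164 and 0.0701) without the Siglech cells (0.49, adjusted p = 0.117), in DESeq2, without the sample block and under the stricter exclusion (adjusted p = 0.0787, 0.276 and 0.146).

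By the rule for named genes, the largest differences between cDC1 and cDC2 included genes outside these lists. P3h2, a collagen prolyl hydroxylase, stood at 85.9, 104, 108 and 497 CPM in cDC1 and at 5.45, 0, 0 and 0 CPM in cDC2 (log2 5.71, SE 0.52). Ccser1 stood at 437, 468, 304 and 483 CPM against 2.73, 23.8, 27.9 and 5.59 CPM (5.06, SE 0.44). Plpp1, a lipid phosphatase, had 113 UMIs against 3 (ratio 30.2, 95% interval 10.1 to 148), and 81 against 1 without sample 3 (73.7, 12.9 to 2945). In cDC2, P3h2 had UMIs in sample 1 alone, and Ccser1 had some in every sample but lay far below its cDC1 values. P3h2 in cDC1 was several times higher in sample 4 than in the others. Without sample 1 P3h2 had no UMI in cDC2 and was at least 52.9-fold higher in cDC1, and without sample 4 its log2 value was 4.99. Left-out samples moved the log2 value of Ccser1 to 4.33 (without sample 1) or 5.84 (without sample 3). Asap2 (4.27, and 4.94 without sample 1), Agpat3 (4.20), Sept3 (3.84, and 93 UMIs against 2 without sample 1, a ratio of 31.5 with a 95% interval of 8.48 to 264), Cdon (3.78) and the antisense transcript 4931406G06Rik (4.41, and 3.75 without sample 1) followed. Gm43914 (4.16) is annotated inside Clec9a on the same strand (chr6:129418179-129418772), so its reads and those of the rule gene cannot be told apart by position.

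The genes most reduced in cDC1 were led by Clec4n (dectin-2, a receptor for fungal sugars), at 0, 4.18, 8.68 and 10.1 CPM against 109, 75.4, 137 and 363 CPM (log2 -4.81, SE 0.42, adjusted p = 4.55e-05). S100a4, a calcium-binding protein, stood at 36.2, 16.7, 108 and 152 CPM against 1158, 1420.4, 463 and 413 CPM (-3.28, SE 0.58). Csf1r, the receptor for macrophage colony-stimulating factor, stood at 2.68, 8.36, 39.9 and 20.3 CPM against 140.5, 135, 158 and 128 CPM (-3.02, SE 0.43). None of these genes overlapped between the gates. Leaving out sample 3 took Clec4n to -5.44 and Csf1r to -3.89, leaving out sample 1 took Csf1r to -2.43 and S100a4 to -2.69, and leaving out sample 4 took S100a4 to -3.97. Timp1 (-4.16), Gab1 (-3.79), Fabp5 (-3.53), Ms4a4c (-3.52), Gda (-3.36), Mcemp1 (-3.27) and Tmem176b (-3.17) completed the 10 genes, of which Fabp5, Gda and Mcemp1 stood at -4.20, -4.41 and -4.14 without sample 3. Timp1 then had 2 UMIs against 74 (40.7-fold lower, 95% interval 10.9 to 342).

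For antigen processing on MHC class I, 6 of 18 tested genes were higher in cDC1 and 1 lower, with a median of 0.03. The shares over all genes tested were 8.46% higher and 8.62% lower, with a median of 0.02. The immunoproteasome subunit Psmb9 stood at 436, 284, 182 and 115 CPM against 222, 147, 77.6 and 61.4 CPM (log2 1.12, SE 0.18, adjusted p = 0.00175), and the proteasome activator Psme1 at 793, 627, 531 and 412 against 439, 397, 186 and 229 CPM (1.06, SE 0.17, adjusted p = 0.00141). Both genes were higher in cDC1 within each of the 4 samples although their ranges overlapped across samples, and neither was called without the sample block (adjusted p = 0.196 and 0.0625). The peptide transporter genes Tap1 (0.90) and Tap2 (0.84), Psmb8 (0.74) and the chaperone Pdia3 (0.53) were also called. Tap1 was not called without sample 2 (0.85, adjusted p = 0.0515) or sample 3 (0.77, adjusted p = 0.0565), Tap2 without sample 1 (0.84, adjusted p = 0.0861) or sample 3 (0.79, adjusted p = 0.0657) and Psmb8 without sample 1 (0.72, adjusted p = 0.0762). Pdia3 was not called without any 1 of the 4 (adjusted p from 0.0589 to 0.197), nor without a filter on counts (adjusted p = 0.0966). Without the sample block Tap1, Tap2, Psmb8 and Pdia3 were not called (adjusted p = 0.202, 0.0531, 0.371 and 0.127), nor under the stricter exclusion (adjusted p = 0.0587, 0.182, 0.120 and 0.365). In DESeq2 Tap2 and Pdia3 were not called (adjusted p = 0.155 and 0.151). Cybb, a subunit of the phagosomal oxidase, was lower, at 152, 192, 175 and 112 CPM against 629, 460.2, 742 and 508 CPM (-1.81, SE 0.19, and -3.77 without the Siglech cells). The class I chains H2-K1, H2-D1 and B2m did not pass, with log2 values of -0.12, 0.04 and -0.19.

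For MHC class II, 5 of 12 tested genes were higher and 2 lower, with a median of 0.28. The shares over all genes tested were 8.46% higher and 8.62% lower. H2-Ab1, a class II chain, stood at 6443, 6052, 4303 and 4510.4 CPM in cDC1 against 3939.7, 5658, 3298 and 3547 CPM (log2 0.48, SE 0.10, adjusted p = 0.0052, and 0.215 without the sample block). Cd74 stood at 13334, 11222, 8822 and 9555 CPM against 9103, 11796, 7198 and 8411 CPM, and was lower in cDC1 than in cDC2 in sample 2. The call on Cd74 (0.34, adjusted p = 0.0205) was lost without sample 1, 3 or 4 (0.23, 0.33 and 0.33, adjusted p = 0.0952, 0.0615 and 0.0647). H2-Eb1 (0.41) was not called without sample 1 (0.30, adjusted p = 0.0518), H2-Aa (0.30) without sample 1, 3 or 4 (0.21, 0.31 and 0.29, adjusted p = 0.166, 0.0658 and 0.0947) and H2-Ob (1.02) without sample 1 or 3 (0.97 and 0.88, adjusted p = 0.0761 and 0.0595). Without the sample block Cd74, H2-Eb1 and H2-Aa were not called (adjusted p = 0.340, 0.178 and 0.222). In DESeq2 these genes and H2-Ob were not called (adjusted p = 0.163, 0.0547, 0.234 and 0.101), nor Cd74 and H2-Aa under the stricter exclusion (adjusted p = 0.119 and 0.185), nor H2-Ob without any (adjusted p = 0.197). The endosomal proteases were lower. Ctss stood at 579, 502, 566 and 642 CPM against 1035, 924, 891 and 1139 CPM (-0.70, adjusted p = 0.0022), and Lgmn was lower by a log2 value of -1.12 (adjusted p = 0.00194), each without overlap.

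Among costimulatory and checkpoint genes, 3 of 7 tested were higher and 1 lower, against 8.46% higher and 8.62% lower over all genes tested. Pdcd1lg2 (PD-L2, a ligand of PD-1) stood at 217, 109, 226 and 203 CPM against 40.9, 75.4, 71.4 and 27.9 CPM (log2 1.94, SE 0.32, adjusted p = 0.00175). Cd86, which costimulates through CD28, stood at 507, 531, 675 and 544 CPM against 1058, 1436, 848 and 1016 CPM (-0.83, SE 0.16, adjusted p = 0.00539). These genes went in opposite directions without overlap. The call on Cd86 was lost under the stricter lineage exclusion (-0.69, adjusted p = 0.0511) and without any (-0.31, adjusted p = 0.101). Havcr2 (TIM-3, 0.98) lost its call without sample 1 (0.71, adjusted p = 0.0762), and Cd83 (0.59) without sample 3 or 4 (0.44 and 0.51, adjusted p = 0.115 and 0.101), without the sample block (adjusted p = 0.110) and under the stricter exclusion (adjusted p = 0.193). Cd274 (PD-L1) stood at 644, 284, 512 and 538 against 573, 377, 512 and 564 CPM and did not pass (0.04, adjusted p = 0.892).

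No listed cytokine or chemokine gene was called higher in cDC1, and 3 of 8 tested were lower. The shares over all genes tested were 8.46% higher and 8.62% lower. Il1b, the inflammasome-processed cytokine, stood at 653, 739.7, 547 and 517 CPM in cDC1 and at 1125, 1555, 1096 and 1770.5 CPM in cDC2 (log2 -1.05, SE 0.16, adjusted p = 0.000931). Its antagonist Il1rn stood at 28.2, 50.2, 102 and 84.5 CPM against 147, 103, 506 and 184 CPM (-1.75, SE 0.27, adjusted p = 0.00128). In both genes every cDC1 value lay below every cDC2 value. Il1rn was not called without the sample block (-1.75, adjusted p = 0.0553), under the stricter lineage exclusion (-2.33, adjusted p = 0.0756) or without any (-0.37, adjusted p = 0.0575). The call on the chemokine Ccl5 (-1.50, adjusted p = 0.0236) was lost without sample 1 (-1.16, adjusted p = 0.145), without sample 3 (-1.66, adjusted p = 0.0668), without the Siglech cells (-0.63, adjusted p = 0.570), without the sample block (adjusted p = 0.295) and without any lineage exclusion (adjusted p = 0.0897). Il6 had 0 UMIs in cDC1 and 36 in cDC2, at least 15-fold lower. Of the 36 UMIs 34 lay in sample 1, and without that sample 2 UMIs are left, too few for a bound. Ccl4 was at 176, 259, 180.5 and 172 CPM against 32.7, 175, 292 and 16.8 CPM and did not pass (1.08, adjusted p = 0.165).

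Of 15 cytokine and growth factor receptors tested, 4 were lower in cDC1 and none higher. The shares over all genes tested were 8.62% lower and 8.46% higher. Il1r2, the decoy receptor for interleukin-1, stood at 354, 251, 356 and 527 CPM against 1299.6, 1230, 969 and 1709 CPM (log2 -1.71, SE 0.15, adjusted p = 4.55e-05). The others were Csf1r, Il13ra1 (-1.47, adjusted p = 0.0551 without the sample block) and Csf2rb2 (-0.86), the last of which was not called without sample 1, 3 or 4 (adjusted p = 0.112, 0.0615 and 0.0729). Of 9 homing genes, 4 were lower and 1 higher, beside the same shares of 8.62% and 8.46%. The chemokine receptor Ccr2 stood at 30.9, 16.7, 41.6 and 23.7 CPM against 217, 226, 139.7 and 156 CPM (-2.50, SE 0.28, adjusted p = 0.000187). Cxcr4 (-0.79) lay at the threshold (adjusted p = 0.0499) and was not called without sample 1, 2 or 4 (adjusted p = 0.249, 0.0984 and 0.142). Csf2rb2 and Cxcr4 were not called in DESeq2 (adjusted p = 0.101 and 0.185), without the sample block (0.0609 and 0.238), under the stricter exclusion (0.129 and 0.0756) or without any (0.837 and 0.191). The integrin chain Itga4 was higher, at 608, 932, 817 and 730.3 against 537, 524, 459.6 and 246 CPM (0.90, SE 0.19, adjusted p = 0.00784), and was not called under the stricter lineage exclusion (1.08, adjusted p = 0.0725).

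The counts of the remaining lists against cDC2 stand beside 8.46% higher and 8.62% lower over all genes tested. Among 7 interferon-induced genes 1 was lower, Gbp2 (log2 -1.82, adjusted p = 0.0747 without the sample block). Among 5 pattern receptors and adaptors, Clec4n and Tlr2 (-1.84) were lower. Tlr2 no longer had enough counts to test without the Siglech cells. Of 8 maturation genes 4 were lower. Stat4 (-1.07) kept its call when each sample was left out but not without the sample block (adjusted p = 0.0790), while Tmem123 (-0.90) lost it without sample 1 (adjusted p = 0.0686), Birc2 (-1.04) without sample 1 or 2 (adjusted p = 0.136 and 0.0817) and Marcksl1 (-0.98) without sample 1, 2 or 4 (adjusted p = 0.190, 0.0876 and 0.113) and, at nearly the same value, without the Siglech cells (-0.96, adjusted p = 0.0668). Of 6 immediate early and heat shock genes, which cell isolation can induce, Fos was higher (0.65), a call lost without sample 2, 3 or 4 (adjusted p = 0.0921, 0.182 and 0.0834). Fos was not called in DESeq2, without the sample block, under the stricter exclusion or without any (adjusted p = 0.0681, 0.0881, 0.416 and 0.169). Birc2 was not called in DESeq2 (adjusted p = 0.0784), Marcksl1 without the sample block (adjusted p = 0.555), and neither without any lineage exclusion (adjusted p = 0.0644 and 0.197).

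**Figure D4:**
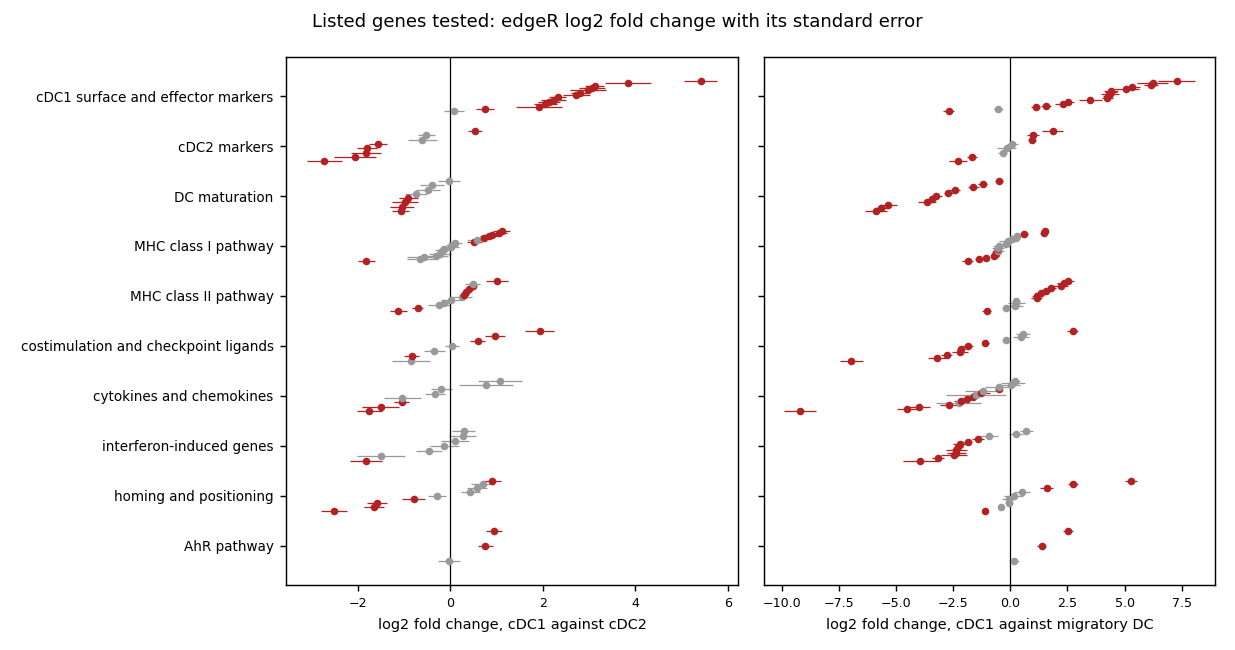
Log2 fold change (horizontal axis, cDC1 minus the compared gate) of each tested gene of the lists, with cDC2 in one panel and migratory dendritic cells in the other. Red points passed edgeR's adjusted p under 0.05 and grey points did not, and 13 of 14 cDC1 surface and effector genes were higher against cDC2 while all 11 maturation genes were lower against migratory cells.

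The second comparison set cDC1 against migratory dendritic cells (at least 1 UMI of Ccr7, at least 3 of Fscn1 and Ccl22 together, no lineage UMI), which numbered 53, 28, 282 and 78. Fscn1 and Ccl22 also enter the cDC1 rule, and the cDC1 sums are the same as in the first comparison, so the comparisons share data. Of 6365 genes tested, 1230 were higher in cDC1 (19.3%) and 1202 lower (18.9%), and the 4 and 4 values did not overlap in 16% and 16.8% of genes. The migratory gate does not tell which conventional lineage a cell came from.

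The cDC1 surface and effector genes were again higher: of 17 tested, 15 were higher and 1 lower, with a median log2 fold change of 4.26 against -0.01 over all genes. Cadm1 was at 7.04, 0, 11.4 and 9.30 CPM in migratory cells (log2 6.16, SE 0.31, adjusted p = 1.59e-06), Naaa at 33.8, 25.7, 19.4 and 16.3 CPM (4.24, SE 0.24) and Itgae at 28.2, 12.8, 3.70 and 13.9 CPM (4.36, SE 0.39, and 5.07 without sample 1). None of these overlapped with the cDC1 values given above. Tlr3 had 45 UMIs in cDC1 and 0 in migratory cells, at least 40.8-fold higher (15.5-fold without sample 3). Cd36, a scavenger receptor that binds lipids and dying cells, varied in cDC1 from 8.36 CPM in sample 2 over 61.7 and 363 CPM in samples 1 and 3 to 1366 CPM in sample 4, and was at 5.64, 0, 10.2 and 20.9 CPM in migratory cells (5.32, SE 0.35). Ly75 went the other way, at 161, 87.8, 319 and 132 CPM against 769, 1096, 1369 and 1228 CPM (-2.70, SE 0.25).

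Of the transcription factors, 2 of 6 were lower in cDC1 and none higher, against 18.9% lower and 19.3% higher over all genes tested. Zbtb46, which marks conventional dendritic cells, stood at 44.3, 16.7, 50.3 and 128 CPM against 258, 411, 439 and 439 CPM (log2 -2.75, SE 0.33, adjusted p = 0.000139). Irf8 (-0.69, adjusted p = 0.0156) lost its call without sample 2 (-0.69, adjusted p = 0.0524) and without sample 3 (-0.56, adjusted p = 0.0792), without the sample block (adjusted p = 0.248) and without any lineage exclusion (adjusted p = 0.469). Batf3 stood at 78.9, 89.9, 106 and 102 CPM in migratory cells, a range that overlapped with that of cDC1 (-0.21, adjusted p = 0.546).

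All 11 maturation genes were lower in cDC1, with a median of -3.23. The rule used Fscn1 and Ccl22, which mark the same state, so this direction follows in part from how the gates were drawn. Socs2 stood at 0, 4.18, 19.1 and 6.76 CPM in cDC1 and at 438, 351, 465 and 474 CPM in migratory cells (log2 -5.88, SE 0.46, and -5.19 without sample 1). Without sample 3 Socs2 had 3 UMIs against 801 (189.5-fold lower, 95% interval 64.6 to 921). Cd200 (-5.66), Cacnb3 (-5.33), Marcksl1 (-3.64, and -4.39 without sample 3) and Relb, a subunit of NF-kB (-2.43), were lower as well. Birc3, the smallest of the 11 (-0.51), lost its call without any 1 of the 4 samples (adjusted p from 0.0516 to 0.184) and without the Siglech cells (-0.40, adjusted p = 0.116), in DESeq2, without the sample block, under the stricter exclusion and without any (adjusted p = 0.0797, 0.116, 0.133 and 0.287). Of the 10 genes furthest below migratory cells, 7 had no UMI in any cDC1: Syn3 (2733 UMIs in migratory cells, at least 335-fold lower), Dscaml1 (at least 199.5-fold), Tmem150c (at least 116-fold), Synpo2 (at least 82.4-fold), Il6 (at least 57.6-fold), Slco5a1 (at least 44.4-fold) and Bmper (at least 31.9-fold). Sample 3 held 282 of the 441 migratory cells, and without it the bounds of Syn3, Dscaml1, Tmem150c, Synpo2 and Il6 were 199-fold, 90.6-fold, 66.5-fold, 33.8-fold and 38.1-fold. Without sample 1, which held 40 of the 117 cDC1, the bounds of Syn3, Dscaml1, Tmem150c, Il6, Slco5a1 and Bmper were 214-fold, 131-fold, 73.1-fold, 36.8-fold, 27.0-fold and 18.2-fold. Adgrg6, an adhesion receptor, stood at 1.34, 0, 3.47 and 3.38 CPM against 609, 1648, 887 and 1257 CPM (-8.67, SE 0.31), Nrp2 was lower by a log2 value of -7.05, and Mylk had 2 UMIs against 2043 (376-fold lower, 95% interval 104 to 3105, and at least 72.9-fold without sample 3, which held both UMIs).

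Antigen presentation genes were counted by class. Of 13 MHC class II genes, 8 were higher in cDC1 and 1 lower, with a median of 1.16. Of 19 class I pathway genes, 3 were higher and 7 lower, with a median of -0.51. The shares over all genes tested were 19.3% higher and 18.9% lower, and the class I genes called higher lay near that share. Some of the class I calls depended on single samples, as given below. H2-DMb1, which helps load class II peptides, stood at 535, 435, 340.1 and 409 CPM in cDC1 and at 135, 116, 35.2 and 55.8 CPM in migratory cells (log2 2.54, SE 0.25, adjusted p = 4.79e-05). H2-Ab1 was at 2495, 2936, 863 and 841 CPM in migratory cells, below every cDC1 sample (1.79, SE 0.23). B2m, the light chain of class I, stood at 1036, 736, 1262 and 1285 CPM in cDC1 against 2258, 1827, 2384 and 2425 CPM (-1.07, SE 0.13, adjusted p = 0.000181). Calr (1.51) and Pdia3 (1.49), chaperones that fold class I chains, were higher without overlap, and Nlrc5 (-1.87), the class I transactivator, and Psme2 (-1.39) were lower without overlap. Canx (0.60) lost its call without sample 1 or 4 (adjusted p = 0.0659 and 0.0945), Tapbp (-0.54) without sample 1, 3 or 4 (adjusted p = 0.0776, 0.0688 and 0.0651), and Psmb10 (-0.60) without any 1 of the 4 (adjusted p from 0.0501 to 0.271) and without the Siglech cells (-0.47, adjusted p = 0.117). Psmb10 was not called in DESeq2, without the sample block, with a threshold of 3 UMIs for the gates, under the stricter exclusion or without any (adjusted p = 0.110, 0.159, 0.0753, 0.0575 and 0.128), Tapbp without any exclusion (adjusted p = 0.0980) and Canx without a filter on counts (adjusted p = 0.0705). Lgmn was the class II gene that was lower (-1.03).

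Costimulatory genes were mostly lower in cDC1 than in migratory cells, 7 of 11 tested against 1 higher. The shares over all genes tested were 18.9% lower and 19.3% higher. Cd80 stood at 153, 138, 135 and 264 CPM against 583, 715, 799 and 943 CPM (log2 -2.17, SE 0.18) and Cd40 at 25.5, 8.36, 50.3 and 23.7 CPM against 193, 107, 262 and 189 CPM (-2.78, SE 0.24). Cd274 (-1.84), Cd86 (-1.10), Icosl (-2.20), Tnfsf9 (-3.20) and Tnfsf4 (OX40 ligand, -6.95, and -6.28 without sample 3) were lower too. Without sample 1, which held its few UMIs, Tnfsf4 was at least 125-fold lower. Havcr2 was the exception, at 437, 347, 285 and 490.3 CPM against 91.6, 77.0, 39.2 and 41.8 CPM (2.73, SE 0.24).

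Of 21 listed cytokine genes 16 were tested, some of them, such as Il6, only through their counts in migratory cells. Among these 9 were lower in cDC1 and none higher, against 18.9% lower and 19.3% higher over all genes tested. Ccl5 stood at 16.1, 66.9, 104 and 3.38 CPM against 948, 698, 1227 and 816 CPM (log2 -4.53, SE 0.45, adjusted p = 4.83e-05, and -5.14 without sample 3). Il15ra (-4.00, and 70.7-fold lower without sample 3, from 3 UMIs against 299, 95% interval 24 to 345), which presents interleukin-15 to T and NK cells, Il15 itself (-1.90), Ebi3 (-2.67), Il1rn (-2.18), Cxcl16 (-1.64) and Il6 were lower. Il1b (-0.50) lost its call without sample 1 (-0.35, adjusted p = 0.175), without sample 3 (-0.43, adjusted p = 0.133) and without the Siglech cells (-0.26, adjusted p = 0.277), and Tnf (-1.28) lost it without sample 1 (-0.87, adjusted p = 0.188) or sample 3 (-1.33, adjusted p = 0.117). Both were not called in DESeq2 (adjusted p = 0.0549 and 0.0706), without the sample block (0.0969 and 0.0859) or without any lineage exclusion (0.585 and 0.515), nor Il1b under the stricter exclusion (0.130) or with the threshold of 3 UMIs (0.0775). Interferon-induced genes were lower in 9 of 12 tested, with a median of -2.25, against 18.9% lower and a median of -0.01 over all genes tested. A gene can pass the count filter through migratory cells alone, so this count and median describe the tested genes only. Isg15 stood at 60.4, 4.18, 31.2 and 6.76 CPM against 602, 72.8, 185 and 107 CPM (-3.15, SE 0.26), lower without overlap.

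Some differences from migratory cells rested on the Clec9a-only cells with Siglech. Siglech itself had 231 UMIs against 1 (ratio 628, 95% interval 112 to 24905, and at least 78.4 without sample 3). Cacna1e had 177 against 3 (160, 54.0 to 785, from 75.4 without sample 2 to 322 without sample 1). Cacna1e fell to 19 against 3 (20.2, 5.93 to 106) without the Siglech cells. Ccr9, the gut-homing chemokine receptor, stood at 153, 414, 198 and 284 CPM against 7.04, 12.8, 4.32 and 4.65 CPM (log2 5.28, SE 0.27). Without the Siglech cells, Siglech, Ccr9, Ly6d, Cacna1e, Tlr3, Stmn1, Gcsam and Cd7 no longer had enough counts to test. A lost test by itself does not show that a difference was lost. Tlr3 then had 36 UMIs against 0, at least 38.2-fold higher, so its difference did not rest on those cells. Bst2 went from 1.55 to 0.31 (adjusted p = 0.425), Ly6c2 from 2.19 to 0.05 (adjusted p = 0.948), Tgfbr1 from 1.34 to 0.26 (adjusted p = 0.572) and Ifnar2, a chain of the type I interferon receptor, from 1.01 to -0.073 (adjusted p = 0.839). Ifnar2 was not called either under the stricter exclusion (0.57, adjusted p = 0.104) or with the threshold of 3 UMIs (0.53, adjusted p = 0.163). Tcf4 went from -0.86 to -3.31 and Cybb from -0.10 to -2.44, and both were then called lower. Other receptors kept their calls: Tgfbr2 stood at 134, 201, 78.1 and 125 CPM against 32.4, 34.2, 19.4 and 16.3 CPM (2.31, SE 0.24, and 1.75 without the Siglech cells). Ifngr1 (1.65), Csf2rb (1.02) and the integrin chain Itgb7 (2.76) were higher without overlap. Itga4, the partner of Itgb7, was lower (-1.11).

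Since the study is about AhR, which binds small molecules from diet, microbes and pollutants and then switches on genes, its gene and known targets were followed in cDC1. Ahr lies at chr12:35497974-35535038 on the minus strand. In samples 1 to 4 it stood at 489.6, 581, 453 and 808 CPM in cDC1, at 278, 302, 335 and 341 CPM in cDC2, at 171, 106, 158 and 228 CPM in pDCs and at 171, 149, 132 and 135 CPM in macrophages. T cells had 111, 184, 124 and 150 CPM, migratory dendritic cells 123, 89.9, 90.4 and 91.8 CPM and neutrophils 58.8, 57.2, 47.3 and 21.3 CPM. The lowest cDC1 value lay above the highest value of each other gate, and cDC2 came next, whereas pDCs, macrophages and T cells overlapped among themselves. The difference was 0.95 on the log2 scale against cDC2 (SE 0.17, adjusted p = 0.00281) and 2.51 against migratory cells (SE 0.21, adjusted p = 1.7e-05). A count per gene does not show which exons were read, and no sample was placed in a genotype from it.

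**Figure D5:**
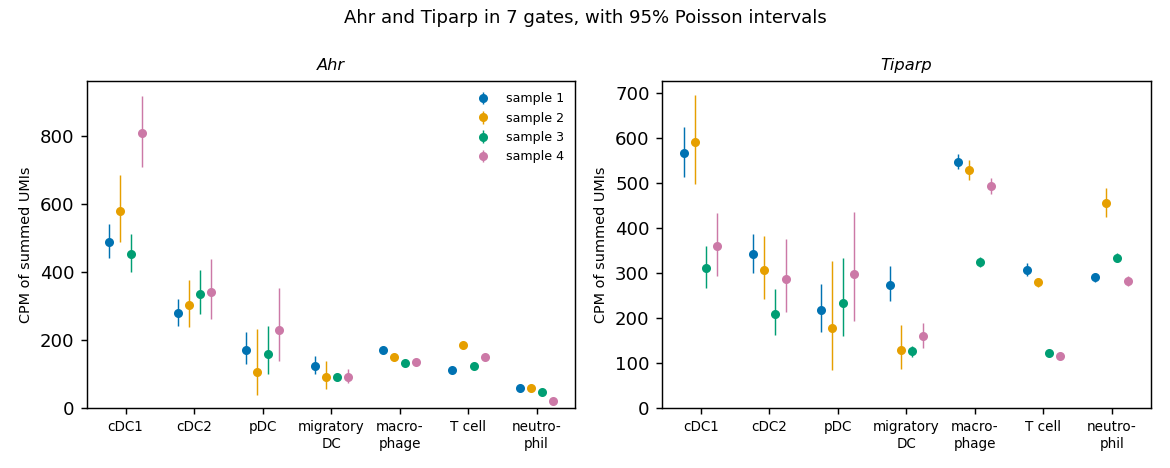
Level of Ahr and of its target Tiparp (vertical axes, CPM) in 7 gated populations (horizontal axis), with 1 point for each of the 4 samples. The cDC1 points for Ahr sat between 453 and 808 CPM, above those of each other population.

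Ahr UMIs were seen in 83.8% of cDC1, against 42.9% of T cells, and in 56.0% and 19.9% after thinning to 2000 UMIs. T cells also express this gene, so their share is no measure of free RNA. Within the gate Ahr was at 629 CPM in the cells with Xcr1, 419 CPM in the Clec9a-only cells without Siglech and 215 CPM in those with it. Tiparp, an AhR target that feeds back on the receptor, stood at 566, 589, 311 and 358 CPM in cDC1 against 341, 306, 208 and 285 CPM in cDC2 (log2 0.76, SE 0.16, adjusted p = 0.00792, and not called without sample 1 at 0.72, adjusted p = 0.0590, or without the sample block, adjusted p = 0.0966). Against migratory cells it was higher by 1.38 (SE 0.19, adjusted p = 0.000375). Macrophages had Tiparp at 546, 528, 324 and 491 CPM, overlapping with cDC1. Arnt, the partner of AhR in the nucleus, was not called in either comparison (-0.03 and 0.15). The targets Cyp1a1 and Cyp1b1 had no UMI in any cDC1, and Ahrr and Nqo1 had at most 2 UMIs in any sample, which is too few to compare. For Cyp1a1 the exact 95% upper bound was 4.95 CPM in sample 1 and 15.4 CPM in sample 2.

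The genes with the widest range over the 4 samples, among 2459 considered, were often carried by few cells. Gzma, a cytotoxic granule enzyme, stood at 258, 29.3, 31.2 and 0 CPM, and all its 192 UMIs of sample 1 lay in 1 cell. Ccl21a (243 CPM in sample 4, 0 elsewhere) and Lyve1 (135 CPM in sample 4), genes of lymphatic vessels, each came from 1 cell. Il12b, a subunit of the interleukin-12 that cDC1 give to T cells, stood at 40.2, 0, 238 and 0 CPM and came from 3 cells of sample 1 and 5 of sample 3. Cd36 was found in 39.3% of the 117 cells, against 2.55% of T cells, whose median depths were 7392, 5237, 9248 and 8297 UMIs in samples 1 to 4, and in 17.2% against 0.708% after thinning to 2000 UMIs. In sample 4 it was found in 12 of the 19 cDC1. Ptgs2, the inducible cyclooxygenase, stood at 77.8, 0, 41.6 and 216 CPM. Pclaf, a replication factor, stood at 118, 25.1, 20.8 and 0 CPM from 5 cells. Fn1 (0, 0, 69.4 and 186 CPM), Timp3 and Tmem267 completed the 10 genes.

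Proliferation genes were seen in few cells. Cells with at least 3 UMIs over 10 cycle genes numbered 4, 2, 6 and 1 in samples 1 to 4, in all 13 of 117. Their median UMI counts were 41693, 17701.5, 20535 and 4812 in samples 1 to 4, against 14780.5, 9762, 11405 and 16280 UMIs in the other cDC1, so that they were the deeper cells in samples 1 to 3 and the shallower in sample 4. Of 5 further cycle genes tested against cDC2, 4 were higher, against 8.46% over all genes tested. Stmn1, a regulator of microtubules, stood at 204, 91.9, 55.5 and 33.8 CPM against 5.45, 39.7, 3.11 and 0 CPM (log2 3.54, SE 0.59, adjusted p = 0.00191, from 2.36 without sample 1 to 5.11 without sample 2). Stmn1 no longer had enough counts to test against cDC2 without the Siglech cells. Hmgb2 (1.07) and H2afz (0.97), which bind or form chromatin, were higher without overlap. Without any lineage exclusion the calls on Stmn1 (0.94, adjusted p = 0.297) and Hmgb2 (0.077, adjusted p = 0.803) were lost. Tubb5 (1.5) lost its call without sample 1 (0.84, adjusted p = 0.251) and without sample 3 (1.37, adjusted p = 0.0905), without the sample block, under the stricter exclusion and without any (adjusted p = 0.130, 0.264 and 0.534). Against migratory cells Stmn1 was again higher (3.32, and 0.89 without any lineage exclusion, adjusted p = 0.214) and the other 6 tested were not called.

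Markers of other cells were present in the cDC1 sums, and their part in the results was not tested. For scale, the 22 listed cDC1 surface and effector genes summed to 5044, 5069.5, 5057 and 6839.9 CPM in samples 1 to 4. Summed over 9 neutrophil genes, samples 1 to 4 had 581, 251, 4803 and 1180 CPM, so that in sample 3 they came near the cDC1 genes. S100a9 led in sample 3 with 2237 CPM, 48.9% of it in 1 cell, and S100a8 in sample 4 with 899 CPM, 93.2% of it in 1 cell. The neutrophil gate itself held S100a9 at 38319 to 63080.5 CPM. The 7 B and plasma cell genes summed to 306, 1133, 177 and 149 CPM, led by Igkc in samples 1 and 2 and by Ighm in samples 3 and 4. Over the 4 samples, 61.4% of the Ighm UMIs lay in the Clec9a-only cells with Siglech. The 8 T and NK cell genes summed to 331, 62.7, 76.4 and 0 CPM, led by Gzma, and all 8 were at 0 in sample 4. The 10 monocyte and macrophage genes summed to 797, 568, 954 and 1305 CPM, led by Lyz2 in samples 1 and 2 and Chil3 in samples 3 and 4. The 9 epithelial and stromal genes summed to 87.2 to 117 CPM, led by Pecam1 in every sample.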

How the data were processed

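The 4 deposited matrices held UMI counts per gene and cell for 32285 genes and 45229 cells (113806334, 135516016, 101579112 and 72509408 UMIs in samples 1 to 4). Per the labels, the authors' processing notes name Cell Ranger 5.0.0, STAR, Seurat and the mm10 build, while the file header names Cell Ranger 7.0.1. Whether intronic reads were counted is not given in the sources used here. The authors' quality cutoffs on genes and mitochondrial UMIs were applied to the deposited counts here, keeping cells with at least 200 genes and under 20% mitochondrial UMIs, which left 43432. The study states fewer cells than either number, and its cell labels were not used here. No doublet caller was run, and the exclusion of cells with UMIs of another lineage stands in its place.

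UMIs were summed per sample and gate and tested in edgeR 4.0.16 (R 4.3.3; TMM normalisation, filterByExpr with a minimum count of 10, quasi-likelihood test, Benjamini-Hochberg adjusted p under 0.05) with the sample as a block, since both gates come from the same library. Comparisons in which a gate held fewer than 20 cells in a sample were not run, except that the 19 cDC1 of sample 4 were kept and that alternatives to a comparison were run with what they left, down to 9 cDC1 in sample 2 under the stricter lineage exclusion. On simulated counts with the real means, 90.9% of genes changed 4-fold and 21% of those changed 2-fold were recovered for cDC2, and 93% and 18% for migratory cells. The changed genes were drawn from those with a mean of at least 50 CPM. The spread between samples was set beforehand and not estimated from these data, with no effect shared by the gates of a sample. The recovered shares do not apply to genes with fewer counts. A missed call at 2-fold says little. The SE beside an edgeR log2 fold change is the size of that value divided by the square root of the test's F statistic. DESeq2 1.42.0 and other settings served as alternatives. Levels are CPM of the summed UMIs, and their number limits the precision. Intervals are exact and cover counting error only. Thinning and tables used Python 3.11.15, numpy 2.4.6, scipy 1.17.1, pandas 2.3.3 and matplotlib 3.10.9.

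Genes named in the text are those of the lists, the 10 largest called differences in each direction that went the same way in all 4 samples with at least 50 CPM, and the 10 genes of widest range over samples with at least 100 CPM in 1 of them. The members, lists and tests were chosen with earlier results of these data known. Coordinates come from GENCODE M21, which holds 32158 of the 32285 gene IDs. Some genes of the lists are counted but not reported here by name.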

Additional observations from a re-analysis of the deposited data

Results flagged for a closer look

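In 13 of 104 values tested for it, 1 of the 4 cDC1 samples stood apart from the others, its gap to the nearest sample divided by the whole range exceeding Dixon's critical value at 95%. Of these, 6 were among the 10 genes picked for their range over the same samples (Gzma, Ccl21a, Il12b, Lyve1, Timp3 and Tmem267), whose choice favours such gaps, and 7 among the other 94. Chance gives about 5% of such groups. Sample 4 was high for Itgae (174 to 216 CPM elsewhere, 426 CPM; ratio 0.832), P3h2 (85.9 to 108 against 497 CPM; 0.947), Cd80 (135 to 153 against 264 CPM; 0.863), Timp3 (0 to 5.21 against 135 CPM; 0.962) and Tmem267 (0 to 29.5 against 206 CPM; 0.857). Tmem267 was also highest in sample 4 in cDC2 (24.5, 3.97, 214 and 402 CPM in samples 1 to 4) and in migratory cells (45.1, 8.56, 28.4 and 291 CPM), but highest in sample 3 in macrophages (83.8, 42.8, 385 and 261 CPM) and in neutrophils (31.1, 16.1, 103 and 36.6 CPM). Ccl21a and Lyve1 (ratio 1 for each) were at 243 and 135 CPM in sample 4 and 0 elsewhere, each from 1 cell. Sample 3 was high for Il12b (238 CPM against 0 to 40.2; 0.831) and S100a9 (2237 CPM against 109 to 272; 0.923), with 48.9% of the S100a9 UMIs in 1 cell. Sample 2 was high for Tlr3 (37.6 CPM against 20.8 to 23.7, from 9 UMIs; 0.831) and Ccl4 (259 CPM against 172 to 180.5; 0.907), and low for Ifi205 (334 CPM against 588 to 602; 0.946). Sample 1 was high for Gzma (258 CPM against 0 to 31.2; 0.879), all of it from 1 cell. The cause of these differences was not tested.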

How the results depend on the processing

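The count of genes called between cDC1 and cDC2, 771, was 432 without sample 1 and ranged from 432 to 725 when each sample was left out in turn. It was 380 with no replicate block, that is without pairing the gates of a library, and 299 under a stricter lineage exclusion, which left 2670 genes to test. DESeq2 called 537, other size factors 770, all genes without a filter 1092, and, in settings added after the data were seen, cells without Siglech 748 and no lineage exclusion 1142. The count against migratory cells, 2432, ranged from 1752 to 2194 with a sample left out and was 2155 with no replicate block, 1906 under the stricter exclusion and 2019 in DESeq2. Without a filter on counts the median of all genes against migratory cells was -0.20. Of the 85 listed or named genes called against cDC2, 46 were called in every setting that tested them, and 106 of 133 against migratory cells. Of these, 30 and 7 were not called without the replicate block, 19 and 5 under the stricter exclusion, 14 and 18 without one, and 12 and 5 in DESeq2. Against migratory cells, Ifnar2 turned to -0.073 without cells with a Siglech UMI. The median share of cDC1 among kept cells, 0.284%, was 0.164% under the stricter exclusion and 0.705% without one. After thinning to 2000 UMIs it was 0.0494% of the kept cells with at least that many UMIs. The sparse rule genes and the 19 to 40 cells per sample limit what can be seen. Tests against pDCs (9 to 26 cells) and between cycling and other cDC1 (1 to 6 cells) were planned and not run, being under 20 cells in a sample.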
